A study of Mus musculus with 12 samples.

Results

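Metallothioneins and the genes that move zinc across membranes were followed in C2C12 myotubes exposed to the mitochondrial uncoupler BAM15. C2C12 is an immortalized mouse myoblast line whose cells fuse into myotubes once serum is lowered. The 6 genes were chosen by gene symbol, as 6 of the 15113 genes counted, and they are Mt1 and Mt2 (metallothioneins), Mtf1 (the metal-responsive transcription factor), Slc30a1 (the zinc exporter ZnT1), Slc39a10 and Slc39a14 (the zinc importers ZIP10 and ZIP14). One group of 6 libraries came from myotubes given 20 μM BAM15 dissolved in DMSO for 16 h, and the other 6 from myotubes given DMSO vehicle for the same time. All 12 libraries share the line, the differentiation in horse serum and the high-glucose medium. The labels do not say which libraries came from separate cultures, so the p-values measure the spread between these libraries, which may be technical.

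Metallothioneins are small cysteine-rich proteins of the cytosol whose thiols hold zinc and copper, so they buffer free metal and also react with oxidants. The level of free zinc is set by SLC30 proteins, which move zinc out of the cytosol, and by SLC39 proteins, which move it in. MTF-1, the product of Mtf1, binds zinc through its zinc fingers and then activates genes whose promoters carry metal response elements, classically Mt1, Mt2 and Slc30a1. Metallothionein genes also respond to glucocorticoids, to oxidants and to other stresses.

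Mt1 (chr8:94179082-94180327 on GRCm38) and Mt2 (chr8:94172664-94173568) lie on the same strand of chromosome 8, with 5513 bases between the end of Mt2 and the start of Mt1. Each has 3 exons, and each coding sequence holds 186 bases. The coding sequences are printed from the GENCODE M21 transcripts to show how alike the genes are, 5′ to 3′ with the cysteine codons in capitals.
Mt1: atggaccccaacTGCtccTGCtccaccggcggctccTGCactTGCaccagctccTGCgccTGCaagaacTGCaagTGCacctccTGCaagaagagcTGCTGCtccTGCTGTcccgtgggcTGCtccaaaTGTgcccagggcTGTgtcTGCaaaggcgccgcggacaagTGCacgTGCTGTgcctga
Mt2: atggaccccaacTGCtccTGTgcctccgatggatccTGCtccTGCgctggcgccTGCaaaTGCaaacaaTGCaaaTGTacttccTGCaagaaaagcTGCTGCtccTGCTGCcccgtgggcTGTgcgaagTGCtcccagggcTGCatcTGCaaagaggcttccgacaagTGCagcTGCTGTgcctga
Cysteine took 20 of the 61 codons before the stop in both genes (32.8%), at the same 20 places. Of the 186 aligned bases 148 were identical (79.6%). In the last 400 bases of the transcripts, where QuantSeq reads fall, Mt1 and Mt2 shared no window of 50 bases. A stretch of 50 bases from there thus tells Mt1 from Mt2. Of the 351 such windows of Mt2, 99 were shared with Gm45774, a gene on the opposite strand.

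The metal response element has a core of 7 bases, written here as TGCGCNC or TGCACNC, and both strands were searched. RefSeq promoters (GRCm38.p6, 250 bases before to 50 after the start of transcription) were given for 5 of the 6 genes and not for Slc39a14. RefSeq and GENCODE place the start of Mt2 differently. GENCODE starts Mt2 at base 94172664, so nearly all of its RefSeq window lies upstream of that start. The promoters of the 3 genes that held the core are printed 5′ to 3′ along the gene with each match in capitals.
Mt1, chr8:94178839-94179138, plus strand: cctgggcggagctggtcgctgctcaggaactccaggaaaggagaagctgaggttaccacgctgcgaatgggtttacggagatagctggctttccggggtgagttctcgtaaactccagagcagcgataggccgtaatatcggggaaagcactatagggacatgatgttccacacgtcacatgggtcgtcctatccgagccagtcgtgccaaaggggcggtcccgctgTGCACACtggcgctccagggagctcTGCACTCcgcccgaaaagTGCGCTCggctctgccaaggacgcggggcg
Mt2, chr8:94172368-94172667, plus strand: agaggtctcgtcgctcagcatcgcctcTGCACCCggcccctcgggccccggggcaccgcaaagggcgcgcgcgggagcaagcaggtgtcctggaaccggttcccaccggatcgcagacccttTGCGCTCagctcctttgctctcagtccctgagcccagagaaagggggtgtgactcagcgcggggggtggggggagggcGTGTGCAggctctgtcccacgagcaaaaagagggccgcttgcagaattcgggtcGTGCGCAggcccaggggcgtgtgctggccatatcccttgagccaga
Slc30a1, chr1:191906531-191906830, plus strand: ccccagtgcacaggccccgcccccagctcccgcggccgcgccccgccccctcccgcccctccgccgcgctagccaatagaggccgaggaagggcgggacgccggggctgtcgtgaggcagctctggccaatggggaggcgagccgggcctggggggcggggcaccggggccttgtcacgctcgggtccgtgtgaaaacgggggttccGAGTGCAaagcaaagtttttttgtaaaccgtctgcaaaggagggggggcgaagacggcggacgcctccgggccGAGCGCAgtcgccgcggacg
In these windows Mt2 had 4 matches, Mt1 had 3 and Slc30a1 had 2. Sequence outside the windows was not searched for either motif, so these are not counts for whole promoters. Among all 32851 RefSeq promoters of this length, 25.7% held at least 1 match, 7.11% at least 2, 1.97% at least 3 and 0.517% at least 4. The promoter of Mtf1 and both promoters listed for Slc39a10 held none in these windows. The Mtf1 window (chr4:124802299-124802598) lies wholly past the GENCODE start at base 124802104. Slc39a10 is on the minus strand and starts at base 46892852 in GENCODE. Of its windows, chr1:46853569-46853868 lies inside that gene and chr1:46925727-46926026 lies before its start. Sequence around these GENCODE starts was thus not searched. The core letters of an antioxidant response element, TGACNNNGC, were found once in Mt2 as TGACTCAGC (positions -79 to -71, where 1 is the RefSeq start). Within the windows they were also found once in Slc30a1, on the opposite strand, and 12.4% of all promoters held at least 1. The match in Mt2 includes TGACTCA, which is also the site that AP-1 factors bind. None of these overlapped a metal response core. A match describes letters and not binding, which was not measured here.

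**Figure D1:**
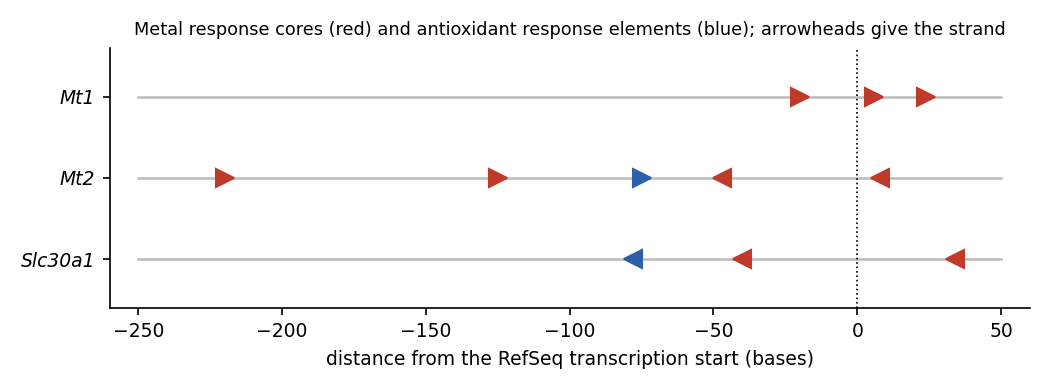
Positions of metal response cores (red) and antioxidant response elements (blue) in the promoters of Mt1, Mt2 and Slc30a1; the x axis gives the distance from the RefSeq transcription start in bases, and arrowheads point along the strand of the match. Mt1 has 3 red marks near the start, Mt2 has 4 spread over the window and Slc30a1 has 2.

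The number of reads on each Ensembl gene was deposited for each library, from 13983725 to 18751780 reads in the BAM15 libraries and from 15299135 to 18866728 in the vehicle libraries. Because QuantSeq reads start near the 3′ end, a count does not grow with the length of the transcript, and levels of different genes are compared here as counts scaled between libraries (normalized counts). All 8 myotube markers (such as Acta1, Myh3 and Ckm) averaged at least 4602 normalized counts in each condition. By the edgeR test described below, Acta1 and Myog were higher after BAM15 (log2 fold changes of 0.46 and 0.37). Ckm and Mylpf were lower (−0.17 and −0.23), and 4 of the 8 were not past the test. Of 6 markers of other lineages, only the osteoblast gene Bglap was found by gene symbol. Bglap had 5 to 16 reads in the BAM15 libraries and 0 to 5 in the vehicle libraries. Too few for the edgeR fit, it was higher after BAM15 by DESeq2. The 6 markers of undifferentiated or cycling myoblasts were also present, and after BAM15 5 of them were lower (Mki67 at 210 against 734, Top2a at 1175 against 3241) and 1, Myf5, was higher (479 against 148). Summed over these 6 markers, the libraries had 2258 to 2834 normalized counts after BAM15 and 5180 to 6072 with vehicle. Their part in the results below was not tested. Fewer cells of a type and less RNA per cell cannot be told apart in such bulk libraries. Among BAM15 libraries those numbered 5 and 6 stood apart, since their chi-square per gene (a measure of how far counts of a pair of libraries differ) was 40.8 to 78.4 against libraries 1 to 3 and 9.08 between them, and library 4 was nearer to libraries 1 to 3 (14.45 to 24.4) than to libraries 5 and 6 (26.6 and 28.2). No source names a batch. For the 6 genes other than Mtf1, fold changes are given also without libraries 5 and 6, and within the number ranges 1 to 3 and 4 to 6. For other genes such values are given only in part, and the marker values above are for all libraries.

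BAM15 raised both metallothioneins and the zinc exporter Slc30a1, and it lowered the importer Slc39a10. Mt2 rose 7.69-fold, Mt1 3.28-fold and Slc30a1 2.42-fold, whereas Slc39a10 was 1.41-fold lower. Mtf1 and Slc39a14 were not past the test. A gene was past the test at an adjusted p-value below 0.01 by the quasi-likelihood F-test of edgeR, after Benjamini-Hochberg correction over the 12730 genes that entered it. All 6 genes had enough counts to be tested, 3 were higher and 1 was lower, where 22% of the 12730 genes were higher and 20.3% lower (42.3% in either direction). With the study's further demands of more than 50 normalized counts on average and more than a 2-fold change, 3 of the 6 were higher and 0 lower, against 3.7% and 3.58% of the 12730 genes (7.28% in either direction). For the 6 genes the median log2 fold change was 0.81, while over all 12730 genes, whatever their level, it was 0.02. That median of the 6 lies in a gap between Slc39a14 (0.34) and Slc30a1 (1.27). The 6 genes were chosen with earlier results of these data known, so these shares and medians are descriptions. DESeq2's Wald test also called 3 of the 6 genes past those thresholds, all of them higher. Without BAM15 libraries 5 and 6 the log2 fold change was 2.84 for Mt2, 1.80 for Mt1, 1.18 for Slc30a1 and −0.49 for Slc39a10, and these 4 genes were past the test in edgeR.

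Mt1 was the more abundant metallothionein in vehicle myotubes. Its normalized counts ran from 10114 to 14374 with vehicle (median 11704) and from 32682 to 45699 after BAM15 (median 38163). The lowest BAM15 library thus lay above the highest vehicle library. The means were 38822 ± 4691 (SD, n = 6) and 11848 ± 1535 (SD, n = 6), or 1.71 ± 0.098 (SE) as log2 fold change, with an edgeR adjusted p of 1.36e-09. Mt1 ranked 165th among the tested genes by mean level in vehicle myotubes and 37th after BAM15.

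Mt2 started lower and ended at the level of Mt1. With vehicle its normalized counts ran from 4704 to 6513 (median 5331), and after BAM15 from 35322 to 48454 (median 41816). Every BAM15 library was above every vehicle library. The mean went from 5405 ± 761 to 41542 ± 5159 (SD, n = 6 each), or 2.94 ± 0.11 (SE) as log2 fold change, with an edgeR adjusted p of 9.07e-12. In rank by mean level Mt2 moved from 483rd to 31st. By size of increase Mt2 was 102nd and Mt1 319th of the 12730 genes. Of the 400 bases at the 3′ end of Mt2, 244 lie under exons of Gm45774, which is read from the other strand. The strand used for counting is not given in the sources used here, and Gm45774 was not analysed here.

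**Figure D2:**
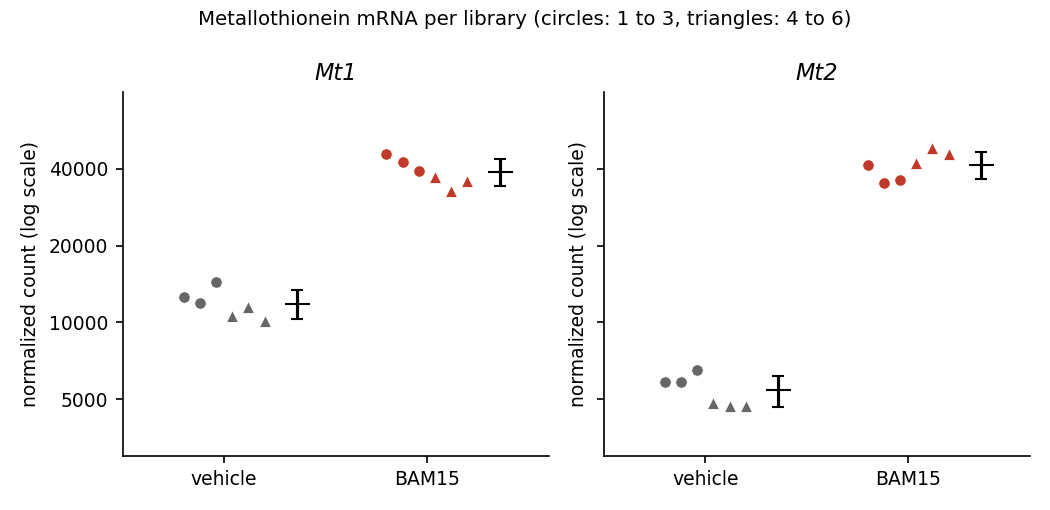
Normalized counts of Mt1 (left) and Mt2 (right) in each library on a log scale, with circles for libraries 1 to 3, triangles for 4 to 6, and black marks for mean ± SD (n = 6). Both genes separate the conditions, and Mt2 starts lower than Mt1 with vehicle (5405 against 11848) and reaches its level after BAM15 (41542 against 38822).

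Together Mt1 and Mt2 took 1020.5 ± 133 CPM (counts scaled to a common library total) with vehicle and 4753 ± 240 CPM after BAM15 (SD, n = 6 each). The proportion between the genes differed too. The ratio of Mt2 to Mt1 reads within a library needs no scaling between libraries, and it was 0.411 to 0.488 with vehicle (median 0.46) and 0.832 to 1.48 after BAM15 (median 1.03). The groups did not overlap, and in the BAM15 libraries numbered 4 to 6 there were more Mt2 than Mt1 reads. In BAM15 libraries 1 to 4 the ratio was 0.832 to 1.13, also above every vehicle library. The share of Mt2 among both was 31.3% ± 1.21 with vehicle and 51.7% ± 5.57 after BAM15 (SD, n = 6 each). These proportions are descriptions without a test, since the genes were chosen with results of these data known.

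**Figure D3:**
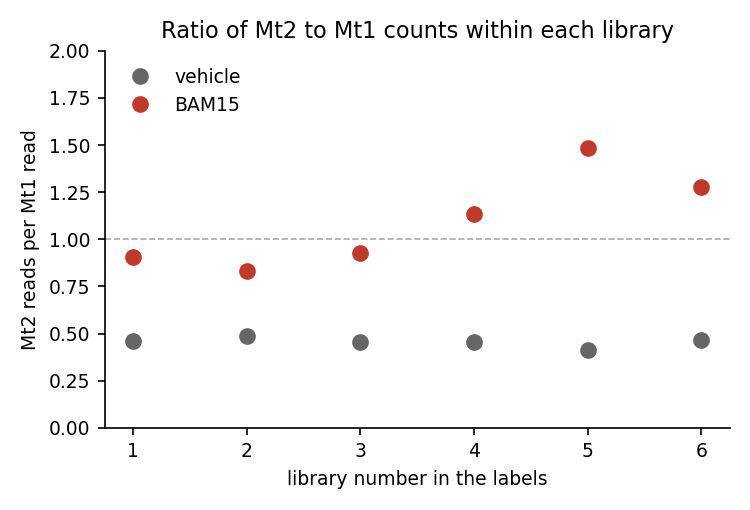
Ratio of Mt2 to Mt1 read counts within each library (y axis) against the library number in the labels (x axis), in grey for vehicle and red for BAM15, with a dashed line at equal counts. Vehicle libraries lie between 0.411 and 0.488, and BAM15 libraries between 0.832 and 1.48.

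The gain of Mt2 was larger in the number range 4 to 6 when all libraries were used, and this call was lost without BAM15 libraries 5 and 6. In BAM15 libraries its mean was 37648 ± 3334 normalized counts for numbers 1 to 3 and 45435 ± 3153 for numbers 4 to 6 (SD, n = 3 each). In vehicle libraries it was 6061 ± 392 and 4750 ± 70.1 (SD, n = 3 each), so that the ranges moved in opposite directions in the 2 conditions. The log2 fold change was 2.63 within numbers 1 to 3 and 3.25 within numbers 4 to 6, a difference of 0.62 ± 0.10 (SE), for which the interaction term in edgeR had an adjusted p of 0.0442. An adjusted p below 0.05 with a higher effect in numbers 4 to 6 was found for 2.14% of all tested genes, and with a lower effect for 0.518%. By unadjusted p Mt2 ranked second among all tested genes. At 0.01, the threshold used for the other results, edgeR called 0 genes, with 3313 at an unadjusted p below 0.05, and DESeq2's Wald test called 341. The threshold of 0.05 was chosen for this difference after that count of 0 was seen. DESeq2 gave Mt2 an adjusted p of 1.18e-04. In edgeR fits that each left out 1 library, the adjusted p of Mt2 rose to at most 0.12, and it was no longer below 0.05 without BAM15 library 1, 2, 3, 5 or 6 or vehicle library 1, 2, 4, 5 or 6. Without BAM15 libraries 5 and 6, which leaves 1 BAM15 library in the range 4 to 6, the difference was 0.52 with an edgeR adjusted p of 0.478. With all libraries the same test gave Mt1 a difference of 0.01 ± 0.11 (SE) with an adjusted p of 0.97, from log2 fold changes of 1.70 and 1.71 within the ranges. Of the 6 genes, Mt2 was the only one with an adjusted p below 0.05 in this test with all libraries.

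Slc30a1 (chr1:191906767-191913247) encodes ZnT1, which pumps zinc out of the cell and is the SLC30 exporter best known as an MTF-1 target. Its normalized counts were 236 to 333 with vehicle (median 286) and 594 to 774 after BAM15 (median 666), without overlap. The mean rose from 284 ± 33.9 to 688 ± 70.9 (SD, n = 6 each), or 1.27 ± 0.091 (SE) as log2 fold change, with an edgeR adjusted p of 1.79e-08. Within numbers 1 to 3 the log2 fold change was 1.12, and within numbers 4 to 6 it was 1.41.

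Slc39a10 (chr1:46807544-46892852) encodes ZIP10, an importer of the plasma membrane. It had 129 to 193 normalized counts with vehicle (median 158) and 107 to 124 after BAM15 (median 114). All 6 BAM15 libraries were below the lowest vehicle library, by a small margin. The mean fell from 162 ± 26.5 to 114 ± 6.04 (SD, n = 6 each), or −0.50 ± 0.11 (SE) as log2 fold change, with an edgeR adjusted p of 1.16e-03. With 3 libraries per condition the sign was the same but the test was not passed, at −0.41 within numbers 1 to 3 (adjusted p = 0.0145, edgeR) and −0.60 within numbers 4 to 6 (adjusted p = 0.0107, edgeR). Groups that did not overlap were found for 3 of the 6 genes in the higher direction and 1 in the lower, against 17.1% and 17% of all tested genes. The ratio of Slc30a1 to Slc39a10 reads was 1.47 to 2.37 with vehicle and 4.78 to 7.21 after BAM15. This ratio restates the fold changes of 1 gene that rose and 1 that fell, and it was not tested. It does not stand for exporters against importers, since Slc39a14, the other importer among the 6, had a log2 fold change of 0.34.

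Slc39a14 (chr14:70303469-70351425) encodes ZIP14, which also carries iron and manganese. Its normalized counts were 152 to 200 with vehicle (median 176) and 200 to 280 after BAM15 (median 216), and 1 BAM15 library lay just within the vehicle range. The fitted log2 fold change came to 0.34 ± 0.10 (SE), with an edgeR adjusted p of 0.0106, just outside the threshold, and 5 of the 6 BAM15 libraries lay above every vehicle library. It was past the test with DESeq2 (adjusted p = 8.03e-03), with a filter of at least 10 counts in every library (9.37e-03), with a block for the number range (7.06e-03) and without BAM15 library 2 or 4 or vehicle library 2 or 4 in edgeR (adjusted p from 7.93e-03 to 9.93e-03). Its log2 fold change was 0.26 within numbers 1 to 3 (edgeR adjusted p of 0.0727), 0.40 within numbers 4 to 6 (0.0398) and 0.23 without BAM15 libraries 5 and 6 (0.052).

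Mtf1 (chr4:124802104-124849800), whose product drives the metallothionein genes, had 545 to 622 normalized counts with vehicle (median 586) and 498 to 683 after BAM15 (median 559). The BAM15 range enclosed the vehicle range. The fitted log2 fold change came to −0.05 ± 0.074 (SE), with an edgeR adjusted p of 0.613, and 2 standard errors on either side reach from −0.19 to 0.10. Its sign was negative under every scaling tried and positive within numbers 4 to 6 (0.03). The 400 bases at the 3′ end of Mtf1 lie wholly under exons of 1110065P20Rik, which is read from the other strand, so their reads cannot be told apart without the strand. That gene had 937 ± 62.6 normalized counts with vehicle and 1073 ± 16.1 after BAM15 (SD, n = 6 each), and its part in the Mtf1 count was not tested.

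**Figure D4:**
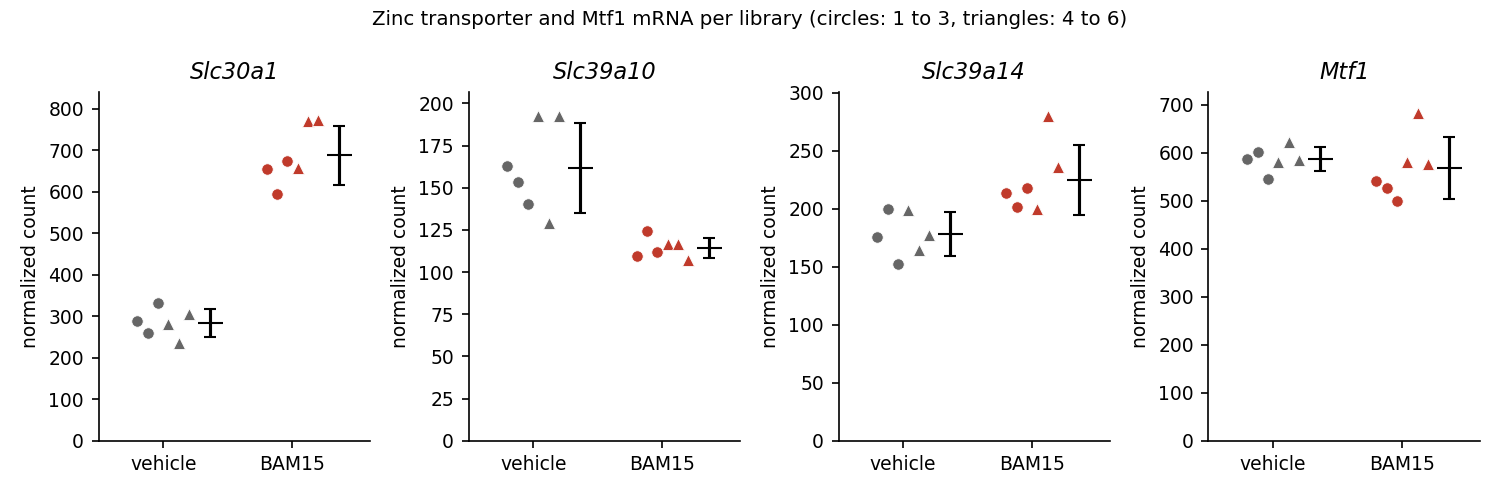
Normalized counts per library of Slc30a1, Slc39a10, Slc39a14 and Mtf1 (y axes from 0), with circles for libraries 1 to 3, triangles for 4 to 6, and black marks for mean ± SD (n = 6). Slc30a1 is higher in all 6 BAM15 libraries and Slc39a10 lower in all 6, 1 BAM15 library of Slc39a14 lies within the vehicle range and the Mtf1 ranges overlap.

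In vehicle myotubes the order of levels was Mt1, Mt2, Mtf1, Slc30a1, Slc39a14 and Slc39a10, and among neighbours in this order only the ranges of Slc39a14 and Slc39a10 overlapped. After BAM15 the order was Mt2, Mt1, Slc30a1, Mtf1, Slc39a14 and Slc39a10, with overlapping ranges for Mt2 and Mt1 and for Slc30a1 and Mtf1.

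Other transporters of the same families changed by less than 2-fold where they passed the test. Of 9 further SLC30 exporters, 7 were found by gene symbol and 5 were tested. Among the 15113 genes counted, 2293 carried no symbol, so a gene not found this way may still have had counts. Of the 5 tested exporters, 0 were past the test in edgeR, where 42.3% of all tested genes were. In edgeR 1 was at an unadjusted p below 0.05, and 0 were past the test in DESeq2 and limma-voom. Their log2 fold changes ran from −0.11 (Slc30a9) to 0.62 (Slc30a5). Slc30a5, which loads zinc into the secretory pathway, had 0.10 within numbers 1 to 3 and 0.98 within numbers 4 to 6 (edgeR adjusted p of 0.659 and 0.0013). Their difference had an adjusted p of 0.0901 in edgeR and 0.0322 in DESeq2. Slc30a2 and Slc30a3 had at most 18 reads in any library and were not tested.

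Of 12 further SLC39 importers, 7 were found by gene symbol and all 7 were tested, of which 2 were higher and 1 was lower. The background was 22% higher and 20.3% lower (42.3% together), so the share past the test was near that of all genes. Slc39a11, which encodes ZIP11, rose from 622 ± 44.5 to 901 ± 108 normalized counts (SD, n = 6 each), or 0.53 ± 0.082 (SE) as log2 fold change, with an edgeR adjusted p of 6.23e-05. Within numbers 1 to 3 its log2 fold change was 0.68 and within numbers 4 to 6 it was 0.36. Slc39a6, which encodes ZIP6 of the plasma membrane, rose from 1316 ± 101 to 1598 ± 163 (0.28 on the log2 scale, edgeR adjusted p of 4.95e-03). It was not past the test without BAM15 library 1, 2 or 3 or without vehicle library 3, 4, 5 or 6 (adjusted p from 0.0101 to 0.014, edgeR), within numbers 4 to 6 (0.0398) or with limma on the log2 signal (0.0167). Slc39a13, whose product ZIP13 releases zinc from vesicles and the Golgi, fell from 1005 ± 44.8 to 779 ± 76.2 (−0.37 on the log2 scale, edgeR adjusted p of 2.84e-04). The median over the 7 genes was 0.01. The other metallothionein genes, Mt3 and Mt4, were not found by gene symbol, so their levels are not known here.

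Metallothioneins also bind copper, and 12 of 13 copper handling genes were found by gene symbol. All 12 were tested, of which 1 was higher and 2 were lower, against 22% and 20.3% of all tested genes. Sco2, a chaperone that brings copper to cytochrome c oxidase in mitochondria, rose from 256 ± 19.7 to 401 ± 50.8 normalized counts (0.65 on the log2 scale, edgeR adjusted p of 2.2e-05). Cox19, another gene of cytochrome c oxidase assembly, fell from 1088 ± 78.7 to 746 ± 51.0 (−0.55 on the log2 scale, edgeR adjusted p of 4.17e-06). Atox1, which hands copper to the pumps of the secretory pathway, fell from 1369 ± 55.1 to 1081 ± 89.6 (−0.34 on the log2 scale, edgeR adjusted p of 2.24e-04). Sco2 (0.71 and 0.57), Cox19 (−0.55 in both) and Atox1 (−0.28 and −0.42) kept their sign and were past the test within numbers 1 to 3 and within numbers 4 to 6. Slc31a1, the copper importer CTR1, had a log2 fold change of −0.22 and was not past the test (edgeR adjusted p of 0.012). The median over the 12 genes was −0.16, and with all libraries none of them had a fitted change of more than 2-fold.

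**Figure D5:**
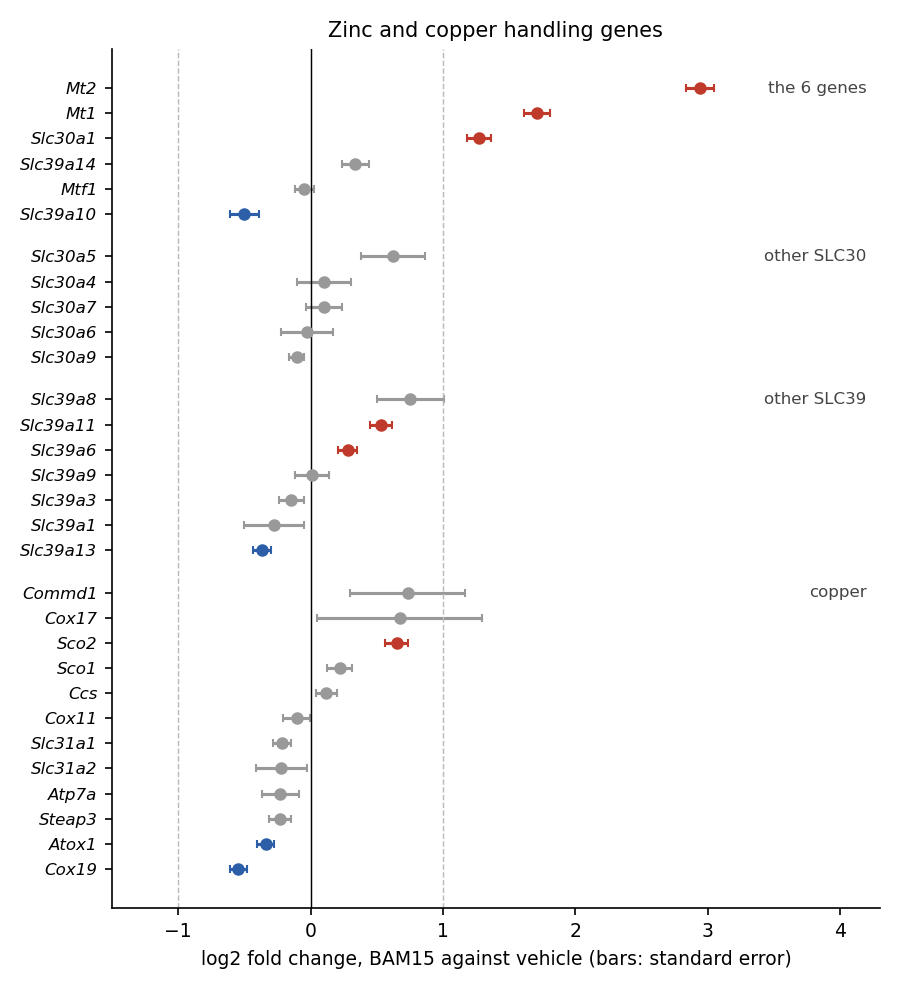
Log2 fold change of each tested zinc and copper handling gene (x axis, bars for the standard error, dashed lines at a 2-fold change), grouped by list; red genes were past the test and higher, blue ones lower, and grey ones were not past it. Mt2 (2.94), Mt1 (1.71) and Slc30a1 (1.27) are the 3 genes beyond the dashed lines.

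The patterns of Mt1 and Mt2 over the 12 libraries were compared with those of 10469 genes of more than 50 normalized counts on average, as the root mean square difference of log2 values, each gene centred on its vehicle mean. Nearest to Mt1 were the amino acid transporter gene Slc1a4 (0.115), the transcription factor gene Nfil3 (0.128) and the aminoacyl-tRNA synthetase gene Eprs (0.131). Nearest to Mt2 were the receptor gene Lpar4 (0.184), the lipid transfer gene Stard5 (0.187) and the kinase gene Pim1 (0.19). Mt2 itself was 0.897 from Mt1 and stood at rank 1438 in nearness to it, with Slc30a1 at rank 162. Seen from Mt2, Mt1 was at rank 135 and Slc30a1 at rank 260. Because every gene is centred on its vehicle mean, the distance largely restates the gap between fold changes. These distances are descriptions, and all 12 libraries enter each of them.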

How the data were processed

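RNA of 12 libraries (6 BAM15, 6 vehicle) was used, grouped by the sample titles, and 11 further columns of the tables were not used. The authors prepared QuantSeq 3′ libraries, used BlueBee software for alignment and deposited whole-number counts per Ensembl gene. The authors sequenced forward reads, and the aligner, annotation and strand setting of the counting are not given in the sources used here, and the submitters' processing notes name GRCm38. The authors also deposited normalized signal, the counts divided by 1 DESeq2 size factor per library (DESeq2 1.22.2 in the notes), which served for 1 alternative.

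Counts were analysed in R 4.3.3 with edgeR 4.0.16. The filter filterByExpr removed 2383 genes, TMM factors ran from 0.932 to 1.04, and a robust quasi-likelihood model holding just the condition was fitted to 12730 genes. A standard error is the log2 fold change divided by the square root of F. Normalized counts are TMM-scaled to the mean library. No 2 libraries of a condition agreed within counting noise (chi-square per gene at least 4.72), so none was a copy. PCR copies are counted as reads and duplication was not measured, so depth may overstate how precise a count is. The difference between number ranges was tested as an interaction.

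The 6 genes and the lists of SLC30, SLC39, copper and marker genes were chosen with earlier results of these data known. All 6 genes are named, with list genes past the test and the 3 genes nearest in pattern to Mt1 and to Mt2. Alternatives were other scalings and filters, DESeq2 1.42.0, limma 3.58.1 (voom, and log2 of the signal with a pseudocount of 1), blocks, number ranges, other thresholds and each library left out. The tests were checked on simulated data. Sequences and positions came from GENCODE M21 and RefSeq on GRCm38, and figures were drawn with matplotlib 3.10.9.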

Additional observations from a re-analysis of the deposited data

Results flagged for a closer look

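The BAM15 effect on Mt2 differed between libraries numbered 4 to 6 and those numbered 1 to 3 by 0.62 on the log2 scale (adjusted p = 0.0442, edgeR's interaction test with Benjamini-Hochberg adjustment), and 72 genes shared this adjusted p, the lowest in the table. Without BAM15 libraries 5 and 6 it was 0.52 (adjusted p = 0.478). Among 26 groups of 6 libraries that were looked at for a library far from the others (12 genes and the ratio of Mt2 to Mt1, in each condition), 0 held one, although chance flags about 1 in 20.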

How the results depend on the processing

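Mt1, Mt2 and Slc30a1 stayed higher and past the test in all 26 alternative fits, with log2 fold changes of 1.65 to 1.80, 2.63 to 3.25 and 1.12 to 1.41. Slc39a10 stayed lower in all 26 and past the test in 24, the exceptions being the number ranges on their own, which hold 3 libraries per condition. The log2 fold change of Mtf1 changed sign, to 0.031, within libraries 4 to 6. The number of the 6 genes past the test ran from 3 to 5. For SLC30 exporters it went from 0 to 1 within libraries 4 to 6 and at an adjusted p below 0.05. For copper genes it went from 3 to 5 with scaling by library size only, with limma on the log2 signal, with a block for the number range, within libraries 1 to 3 and at an adjusted p below 0.05, and to 6 without BAM15 libraries 5 and 6, an alternative chosen after seeing the data. Of the 6 genes, the number whose effect differed between the number ranges was 1 with all libraries and ran from 0 to 1 when 1 library was left out. It was 0 without BAM15 libraries 5 and 6, also chosen after seeing the data. The cause was not tested.

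Libraries with the same number in both conditions correlated above 0.1 in their deviations in 4 of 6 pairs, and 2 of 6 BAM15 libraries correlated best with their own number, so the numbers were not taken as pairs. With a replicate block for the number, 4 of the 6 genes were past the test and 3 past the thresholds, as without it.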

Other observations

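Some transporter and copper genes outside the 6, picked after their values were seen, varied widely among the BAM15 libraries. Cox17, a copper chaperone gene of cytochrome c oxidase assembly, had 180 to 3834 normalized counts after BAM15 and 514 to 1327 with vehicle, and its log2 fold change of 0.67 was not past the test (SE 0.62, edgeR adjusted p of 0.39). Its log2 fold change was −0.96 within libraries 1 to 3 and 1.17 within libraries 4 to 6. Slc39a1, which encodes the plasma membrane importer ZIP1, had a log2 fold change of −0.73 within libraries 1 to 3 (adjusted p = 2.23e-04, edgeR) and 0.02 within libraries 4 to 6 (adjusted p = 0.932, edgeR), and the difference had an adjusted p of 0.106 in edgeR and 0.0154 in DESeq2.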
